A study of Mus musculus with 9 samples.

Results

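The fatty acid elongases and desaturases are membrane enzymes of the endoplasmic reticulum that lengthen acyl chains and set double bonds into them, and 10 of their genes are described here, out of 23337 genes in the deposited table. They are the elongases Elovl1, Elovl2, Elovl3, Elovl5 and Elovl6, the front-end desaturases Fads1 and Fads2 with their relative Fads3, and the stearoyl-CoA desaturases Scd1 and Scd2. They were taken by symbol, and all 10 passed the filter on low counts and were tested. Poly(A) RNA was sequenced with a stranded kit from the livers of 9 C57BL/6 mice on a high-fat diet of 16 weeks begun at 6 to 8 weeks of age, 3 mice in each of 3 groups. The groups carry the genotypes PAR2 KO (KO below), PAR2dHep (dHep) and PAR2fl/fl (WT), and the title of the series links the protease-activated receptor PAR2 to dyslipidemia, obesity and fatty liver disease. The dHep label names a loss of the receptor in hepatocytes, and the WT mice carry floxed alleles. The driver of the deletion, the sex and the time of tissue collection are not given in the sources used here, and nothing in the labels says whether mice shared a litter or cage.

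Elongases carry out the first, chain-length-selective step of a cycle in which further enzymes reduce, dehydrate and reduce again, and desaturases take electrons through cytochrome b5. Elovl6 lengthens palmitate, the product of fatty acid synthase, and Scd1 inserts the first double bond that makes palmitoleate and oleate, the main acyl chains of liver triglycerides. Fads2, Elovl5, Fads1 and Elovl2 act in turn on the essential fatty acids from the diet to make arachidonate and docosahexaenoate. In liver, SREBP-1c, LXR, ChREBP and PPARα are known regulators of many of these genes, and insulin and dietary polyunsaturated fatty acids act on them through these factors.

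Depth was 18683660 to 30509242 assigned reads per library. The targeted gene F2rl1, which encodes PAR2 (mm10 chr13:95511730-95525240, minus strand), had 71, 103 and 76 reads in the libraries labelled KO, 2, 8 and 0 reads in dHep and 17, 27 and 28 reads in WT. The libraries labelled KO thus held more reads of the gene than WT, against their labels. Which of these labels is at odds with the reads cannot be told from them. Every direction given below for the libraries labelled KO, and every comparison of dHep against WT, carries that limit. The table counts the gene as a whole, so reads from a deleted stretch cannot be told from the rest. All 8 hepatocyte markers were detected in every library, with a summed level of 116535 to 129553 CPM in the libraries labelled KO, 117500 to 166977 CPM in dHep and 111813 to 116616 CPM in WT. CPM is a gene's count per 1000000 reads of its library, with library sizes scaled by TMM. Some libraries stood apart: the 10 pancreatic acinar markers summed to 1509 CPM in dHep replicate 2 and 413 CPM in WT replicate 1, and to at most 5.77 CPM in each of the other 7 libraries. The 8 skeletal muscle markers summed to 479.6 CPM in dHep replicate 2 and to at most 46.1 CPM elsewhere, and the intestinal marker Vil1 had 39.2 CPM in KO replicate 1 and at most 1.27 CPM elsewhere. The 9 macrophage markers, all with reads in every group, summed to 88.8 to 168 CPM in the libraries labelled KO, 203 to 381 CPM in dHep and 443 to 534 CPM in WT. The 9 stellate cell and fibroblast markers summed to 218 to 301 CPM in the libraries labelled KO, 251 to 418 CPM in dHep and 552 to 629 CPM in WT, with no overlap between WT and the others. The 7 endothelial markers summed to 134 to 185 CPM in the libraries labelled KO, 180.2 to 253 CPM in dHep and 279.7 to 312 CPM in WT. Cholangiocyte markers (5 genes) summed to 68.7 to 116 CPM in the libraries labelled KO, 43.8 to 56.6 CPM in dHep and 123 to 196 CPM in WT, and the 7 adipocyte markers to at most 25.8 CPM in any library. Most of the cholangiocyte sum was Spp1, with means of 76.2 CPM in the libraries labelled KO, 43.3 CPM in dHep and 152 CPM in WT. Against WT, Sox9 rose in the libraries labelled KO (log2 fold change 1.09 ± 0.23 SE, edgeR adjusted p = 0.00543). Krt19, Krt7 and Epcam had higher means there than in WT but were not called. The part of these cell types in the results below was not tested, and in whole liver fewer cells of a type and less RNA per cell cannot be told apart.

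Against WT, 8 of the 10 genes fell in the libraries labelled KO and 1, Elovl3, rose. In dHep, 4 fell against WT. Of all 13141 genes tested, 43.0% changed in the libraries labelled KO (22.1% down, 20.9% up) and 24.3% in dHep (11.9% down, 12.4% up). Without WT replicate 1 and dHep replicate 2 these counts were 8 and 1 in the libraries labelled KO, and 5 fell and 1 rose in dHep. Leaving out dHep replicate 1, WT replicate 2 or WT replicate 3 alone left 2 that fell in dHep, Scd1 and Elovl5. In the same order, 1499, 771 and 753 of all genes tested fell in dHep, beside 1568 with every library kept. The tests are edgeR quasi-likelihood tests with Benjamini-Hochberg adjustment over all genes tested and a threshold of 0.05. In dHep against WT none of the 10 rose at an adjusted p under 0.05, and 0 rose at an unadjusted p under 0.05, by DESeq2 or by limma voom. The median log2 fold change over the 10 genes was -1.32 in the libraries labelled KO and -0.39 in dHep, beside -0.01 and 0.02 over all genes tested. Both comparisons use the same WT libraries.

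**Figure D1:**
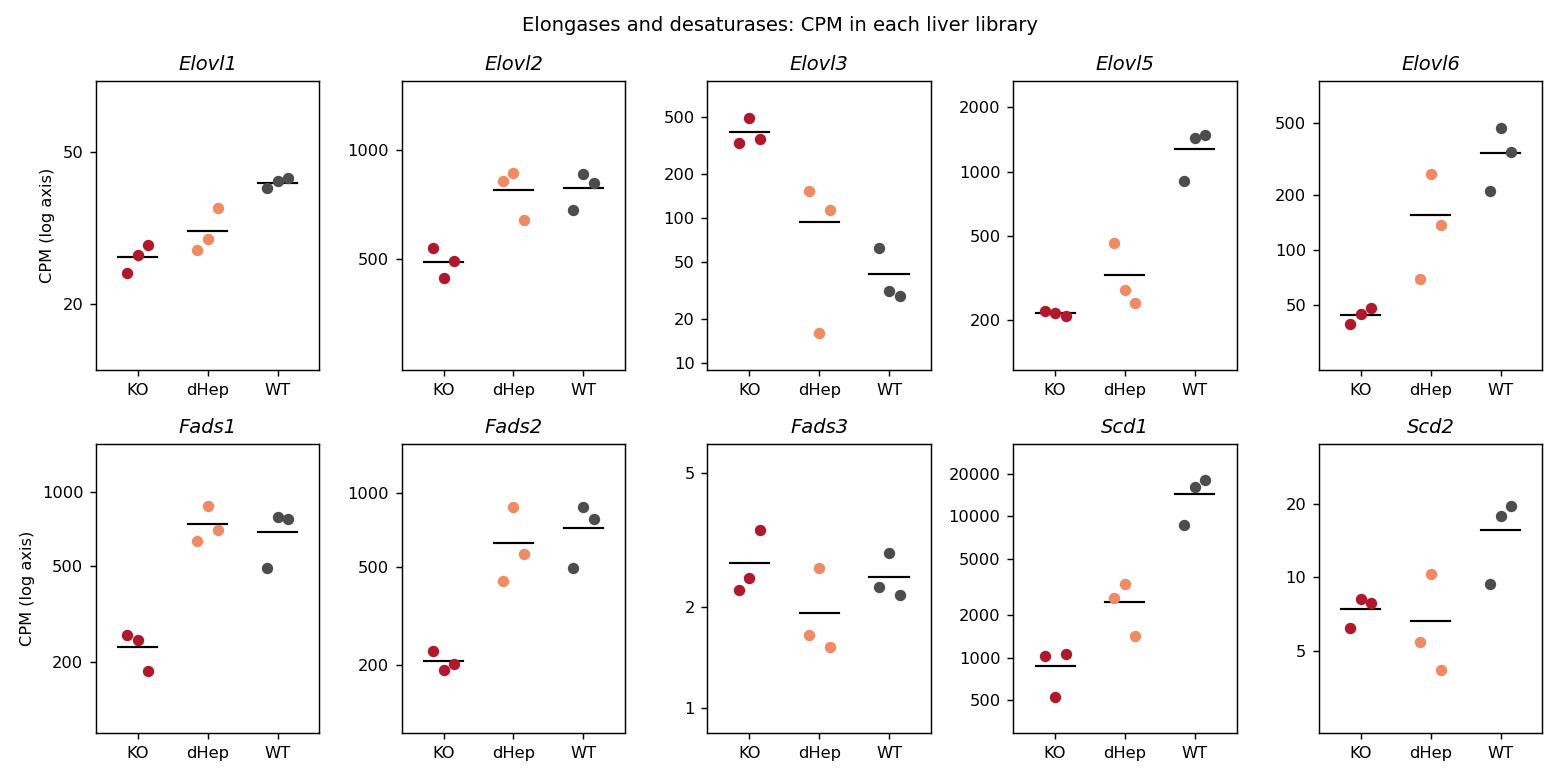
CPM of the 10 genes in each liver library on a log axis, with 1 point per mouse, replicates 1 to 3 from left to right in each group, and a bar at the group mean. Scd1 lay between 527 and 1067 CPM in the libraries labelled KO, between 1432 and 3344 CPM in dHep and between 8641 and 18161 CPM in WT, while Elovl3 was highest in the libraries labelled KO.

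**Figure D2:**
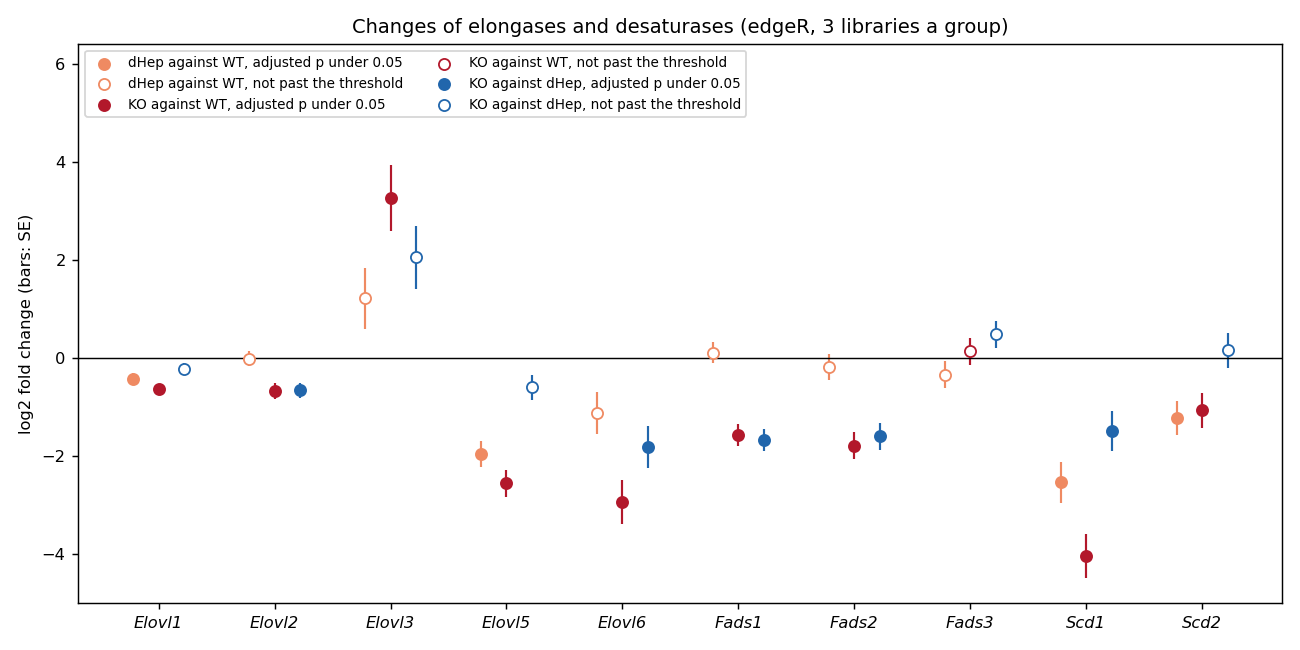
Log2 fold changes of the 10 genes with their standard errors from the edgeR fit over 9 libraries, for the 3 comparisons. Scd1 had the lowest values against WT, -4.04 in the libraries labelled KO and -2.54 in dHep, and Elovl3 lay above 0 in all 3 comparisons, past the threshold in the libraries labelled KO against WT.

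Scd1, the main desaturase of adult mouse liver, which forms palmitoleate and oleate, had the most reads of the family in every library. It had 1028.5, 527 and 1067 CPM in the libraries labelled KO, 2627, 3344 and 1432 CPM in dHep, and 8641, 16257 and 18161 CPM in WT. The 3 groups did not overlap, and within WT replicate 1 was the lowest. Scd1 fell 16.4-fold in the libraries labelled KO (log2 fold change -4.04 ± 0.45 SE, edgeR adjusted p = 0.000339). In dHep it fell 5.81-fold (log2 fold change -2.54 ± 0.42 SE, edgeR adjusted p = 0.00384). Both calls against WT held under all 17 alternative settings.

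Scd2, a close copy of Scd1 with a role mainly outside adult liver, had 6.24, 8.18 and 7.85 CPM in the libraries labelled KO, 5.45, 10.3 and 4.17 CPM in dHep, and 9.42, 17.8 and 19.6 CPM in WT. The libraries labelled KO lay below all of WT, while dHep replicate 2 lay above WT replicate 1. Scd2 fell in the libraries labelled KO (log2 fold change -1.07 ± 0.35 SE, edgeR adjusted p = 0.0335) and in dHep (-1.23 ± 0.35, edgeR adjusted p = 0.0319). Each call ended under several settings, with an adjusted p of up to 0.121 and 0.122 without WT replicate 3. Both genes lie on mm10 chromosome 19, Scd1 at chr19:44394450-44407709 on the minus strand and Scd2 at chr19:44293676-44306862 on the plus strand, in a cluster of 4 Scd genes that spans 204.4 kb. Their annotated transcripts share an exact stretch of 147 bases, and Scd1 and Scd3 one of 185 bases, so reads from these stretches cannot be assigned to 1 copy with certainty.

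The log2 ratio of Scd1 to Scd2 per length was 7.54, 6.18 and 7.26 in the libraries labelled KO, 9.08, 8.51 and 8.60 in dHep, and 10.01, 10.01 and 10.03 in WT. The 3 WT values nearly coincided although the Scd1 level itself was lower in WT replicate 1 than in the other WT libraries, and the ratios of the other groups were more spread. How far Scd1 reads entered the Scd2 row was not tested. The ratio was lower in the libraries labelled KO than in WT by 3.02 and lower in dHep than in WT by 1.29, with an exact two-sided permutation p of 0.1 for each, the smallest that 3 against 3 libraries can give. Scd3 had 1, 0 and 0 reads in the libraries labelled KO, 3, 1 and 0 reads in dHep, and 3, 3 and 7 reads in WT, and Scd4 had at most 3 reads in a library, so neither was tested.

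Elovl6, which lengthens palmitate to stearate, had 39.8, 44.8 and 48.6 CPM in the libraries labelled KO, 69.8, 261 and 138 CPM in dHep, and 211, 469 and 346 CPM in WT. The libraries labelled KO lay below every other library, and dHep overlapped WT through dHep replicate 2. Elovl6 fell 7.70-fold in the libraries labelled KO against WT (log2 fold change -2.95 ± 0.45 SE, edgeR adjusted p = 0.00114). In dHep against WT its log2 fold change was -1.13 ± 0.42 and missed the threshold (edgeR adjusted p = 0.0799), and without dHep replicate 2 it was -1.72 with an adjusted p of 0.0096.

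Of the genes that act on polyunsaturated fatty acids, all 4 fell in the libraries labelled KO and 1, Elovl5, fell in dHep, where Fads2 also fell once WT replicate 1 and dHep replicate 2 were both left out. With every library kept, falls were called for 22.1% of all genes tested in the libraries labelled KO and 11.9% in dHep against WT. Elovl5, which lengthens the products of the first desaturation, had 220.3, 216 and 210.0 CPM in the libraries labelled KO, 462, 278 and 242 CPM in dHep, and 906, 1442 and 1478 CPM in WT. The 3 groups did not overlap. Its log2 fold change against WT was -2.56 ± 0.27 in the libraries labelled KO (5.91-fold lower, edgeR adjusted p = 0.000259) and -1.96 ± 0.26 in dHep (3.90-fold lower, edgeR adjusted p = 0.00152). Elovl2, which makes the longest precursors of docosahexaenoate, had 535, 440.4 and 494 CPM in the libraries labelled KO, 824, 865 and 638 CPM in dHep, and 683, 859.9 and 809.5 CPM in WT. The libraries labelled KO lay below all others, and dHep and WT overlapped. It fell 1.601-fold in the libraries labelled KO (log2 fold change -0.68 ± 0.15, edgeR adjusted p = 0.00701), while in dHep the value was -0.02 ± 0.15 (edgeR adjusted p = 0.953).

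Fads2, the delta-6 desaturase that opens the pathway, had 227, 190.5 and 202 CPM in the libraries labelled KO, 438, 877 and 563 CPM in dHep, and 494, 875 and 778 CPM in WT. Fads1, the delta-5 desaturase that completes arachidonate, had 259.7, 247.7 and 184.7 CPM in the libraries labelled KO, 630.0, 879 and 703 CPM in dHep, and 487, 794 and 779 CPM in WT. For both genes the libraries labelled KO lay below all 6 others, and dHep and WT overlapped. Fads2 fell 3.46-fold in the libraries labelled KO against WT (log2 fold change -1.79 ± 0.28 SE, edgeR adjusted p = 0.0012) and Fads1 2.98-fold (-1.57 ± 0.22, edgeR adjusted p = 0.00084). In dHep against WT the values were -0.19 ± 0.27 for Fads2 (edgeR adjusted p = 0.632) and 0.10 ± 0.22 for Fads1 (edgeR adjusted p = 0.761). With WT replicate 1 and dHep replicate 2 both left out, Fads2 fell in dHep (-0.72, edgeR adjusted p = 0.0236). The sign of the Fads1 value turned without WT replicate 1 (-0.09) or without dHep replicate 2 (-0.04).

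Fads3, the third gene of the cluster, whose product is known in mice and cells as a desaturase of sphingoid bases, had 2.25, 2.44 and 3.40 CPM in the libraries labelled KO, 1.65, 2.61 and 1.52 CPM in dHep, and 2.29, 2.89 and 2.17 CPM in WT. The groups overlapped, and no comparison passed the threshold. Its log2 fold change against WT was 0.13 ± 0.27 in the libraries labelled KO (edgeR adjusted p = 0.716), where its neighbours Fads1 and Fads2 fell. The 3 Fads genes span 155.3 kb of mm10 chromosome 19, with Fads3 at chr19:10041548-10059671 (plus strand), Fads2 at chr19:10064164-10101503 (minus strand) and Fads1 at chr19:10182888-10196872 (plus strand). Fads2 and Fads3 share an exact transcript stretch of 54 bases, so a part of the few Fads3 reads could come from Fads2; its size was not tested.

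The promoter windows of 6 of the 10 genes were matched in the RefSeq table (GRCm38.p6) and 4 genes, Elovl3, Fads1, Scd1 and Scd2, are named only. Elovl5, Elovl6 and Fads2 are shown because they had the largest falls in the libraries labelled KO among the matched genes, and Fads3 because it is the neighbour of Fads2 whose level did not pass the test. Each window holds the 250 bases before the annotated start, 5′ to 3′ on the strand of the gene, with motif letters in capitals.
Elovl5 (chr9:77917115-77917364, plus strand): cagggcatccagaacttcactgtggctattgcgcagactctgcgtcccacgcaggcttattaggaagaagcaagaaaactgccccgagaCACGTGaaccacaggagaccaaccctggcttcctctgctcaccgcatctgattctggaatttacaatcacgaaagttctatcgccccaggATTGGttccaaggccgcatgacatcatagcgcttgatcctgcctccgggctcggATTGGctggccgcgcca
Elovl6 (chr3:129532136-129532385, plus strand): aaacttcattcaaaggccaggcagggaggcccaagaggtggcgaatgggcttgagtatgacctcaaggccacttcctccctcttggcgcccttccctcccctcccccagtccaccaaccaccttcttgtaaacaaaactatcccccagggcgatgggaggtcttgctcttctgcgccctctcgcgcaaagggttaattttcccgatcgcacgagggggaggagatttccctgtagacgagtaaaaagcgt
Fads2 (chr19:10101504-10101753, minus strand): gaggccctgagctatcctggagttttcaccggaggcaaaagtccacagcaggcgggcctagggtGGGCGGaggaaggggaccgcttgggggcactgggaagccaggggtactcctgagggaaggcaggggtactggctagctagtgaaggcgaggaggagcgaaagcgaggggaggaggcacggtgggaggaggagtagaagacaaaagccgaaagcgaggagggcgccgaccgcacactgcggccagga
Fads3 (chr19:10041298-10041547, plus strand): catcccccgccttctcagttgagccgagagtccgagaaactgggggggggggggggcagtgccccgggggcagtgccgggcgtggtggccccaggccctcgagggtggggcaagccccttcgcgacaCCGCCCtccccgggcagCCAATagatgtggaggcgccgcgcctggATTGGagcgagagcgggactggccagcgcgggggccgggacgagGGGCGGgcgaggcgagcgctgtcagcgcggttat
Searched on both strands were the core of the sterol response element, TCACNCCAC, the full element, which is that core with C at its open base and an A before it, the E-box CACGTG, the CCAAT box, the GC box GGGCGG, the LXR and PPAR elements, which are a direct repeat of AGGTCA with 4 open bases (LXR) or 1 (PPAR) between, and the HNF4 motif CAAAGTCCA. The Elovl5 window held 1 E-box, 156 to 161 bases before the start, and 2 CCAAT boxes on the opposite strand, 67 to 71 and 13 to 17 bases before it. The Fads2 window held 1 GC box, and the Fads3 window 2 GC boxes and 2 CCAAT boxes. Of the windows not shown, that of Elovl1 held 5 GC boxes and 1 CCAAT box and that of Elovl2 held 5 GC boxes, at the start of the deposited table. Each of these genes also had a window at another annotated start. It held GC boxes 43 to 48 and 32 to 37 bases before that start for Elovl1, and none of the motifs for Elovl2. No motif letters occurred in the Elovl6 window, and the letters of the sterol, LXR, PPAR and HNF4 motifs occurred in no window of the 6 matched genes. Of all 32851 windows of the table, 6.02% held the E-box, 33.8% a CCAAT box, 32.7% a GC box, 0.0731% the full sterol element, 1.05% its core, 0.0152% the LXR element, 0.0335% the PPAR element and 0.384% the HNF4 motif. A match is a run of letters and not a measured binding site.

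Elovl1, which makes very-long-chain saturated and monounsaturated chains for sphingolipids, had 24.1, 26.9 and 28.6 CPM in the libraries labelled KO, 27.6, 29.6 and 35.6 CPM in dHep, and 40.1, 41.8 and 42.6 CPM in WT. Every WT library lay above all 6 others, while the libraries labelled KO and dHep overlapped. It fell 1.56-fold in the libraries labelled KO (log2 fold change -0.65 ± 0.12 SE, edgeR adjusted p = 0.00276) and 1.34-fold in dHep (-0.42 ± 0.12, edgeR adjusted p = 0.0299). The call in dHep ended under several settings, with an adjusted p between 0.0653 and 0.1 when dHep replicate 1 or any 1 WT library was left out.

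Elovl3, known for very-long-chain saturated and monounsaturated products in brown fat and skin and for male-biased, rhythmic expression in mouse liver, was the gene that rose. It had 328, 489 and 351 CPM in the libraries labelled KO, 153, 16.0 and 114 CPM in dHep, and 61.9, 31.5 and 28.9 CPM in WT. The libraries labelled KO lay above all others, and dHep replicate 2 lay below every WT library. Elovl3 rose 9.56-fold in the libraries labelled KO against WT (log2 fold change 3.26 ± 0.67 SE, edgeR adjusted p = 0.00461). In dHep against WT the value was 1.21 ± 0.63 (edgeR adjusted p = 0.189), and without dHep replicate 2 it was 1.71 with an adjusted p of 0.00626.

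The counts of this paragraph stand beside 43.0% of all genes tested that changed in the libraries labelled KO and 24.3% in dHep against WT. Other genes of male-biased expression moved in both groups. Of 10 such genes, 8 rose in the libraries labelled KO and 7 in dHep against WT, and their summed level was 19887, 22714 and 24760 CPM in the libraries labelled KO, 13838, 8398 and 12432 CPM in dHep, and 7186, 3701 and 3840 CPM in WT. That sum is weighted to the most abundant gene of the list. As with Elovl3, the sum was lowest in replicate 2 within dHep and highest in replicate 1 within WT. Single genes of the list did not all keep that order. Within dHep, Cyp4a12b was lowest in replicate 2 (7.86 CPM, against 26.3 and 37.5 CPM), and Cyp2d9 lay between the others there. Slco1a1 was highest in replicate 2 (862 CPM, against 550 and 606 CPM). The steroid dehydrogenase Hsd3b5 had 548, 586 and 678 CPM in the libraries labelled KO, 282, 217 and 232 CPM in dHep, and 1.01, 0.259 and 0.107 CPM in WT. Of 14 core clock genes, 7 were lower and 1 was higher in the libraries labelled KO than in WT. They include Arntl, an activator of the clock, with a log2 fold change of 2.16 ± 0.35, and the period gene Per3 with -1.58 ± 0.22 (edgeR adjusted p = 0.00157 and 0.000769). In dHep against WT 4 clock genes rose, among them the repressors Cry1 (1.603 ± 0.38) and Cry2 (0.68 ± 0.18), and 1 rose without WT replicate 1 and dHep replicate 2. The part of the male-biased and the clock genes in the Elovl3 result was not tested.

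Between the knockout groups, 5 of the 10 genes were lower in the libraries labelled KO than in dHep, where 9.62% of all genes tested changed (5.39% down, 4.23% up). None of the 10 rose by edgeR, 1 rose at an unadjusted p under 0.05, and 1 rose by DESeq2 and 0 by limma voom. Fads1 fell 3.20-fold (log2 fold change -1.68 ± 0.22 SE, edgeR adjusted p = 0.00344), the call that held under all 17 settings. Fads2 fell 3.03-fold (-1.60 ± 0.28, edgeR adjusted p = 0.0101), Elovl6 3.52-fold (-1.82 ± 0.43, edgeR adjusted p = 0.0319), Elovl2 1.58-fold (-0.66 ± 0.15, edgeR adjusted p = 0.0286) and Scd1 2.82-fold (-1.50 ± 0.41, edgeR adjusted p = 0.049). Without dHep replicate 2 the Elovl6 value was -1.22 with an adjusted p of 0.0703, and the Scd1 call ended under 12 of the 17 settings. Without KO replicate 2 or KO replicate 3, 1 of the 10 genes was called, and with WT replicate 1 and dHep replicate 2 both left out 2 fell and 1 rose. Over all genes tested, 419, 386 and 495 were called in these settings, beside 1264 with every library kept. Elovl5 (-0.60 ± 0.26, edgeR adjusted p = 0.157) and Elovl3 (2.05 ± 0.64, edgeR adjusted p = 0.0735) missed the threshold although their groups did not overlap. Elovl1 (-0.22 ± 0.12), Fads3 (0.48 ± 0.28) and Scd2 (0.15 ± 0.35) had adjusted p values of 0.257, 0.283 and 0.807.

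Levels of different genes were set beside each other per length, as RPKM, which is CPM divided by the gene length in kilobases from the deposited table. The 10 genes summed to 784 to 853 RPKM in the libraries labelled KO, 1229.9 to 1923 RPKM in dHep and 2850.3 to 5338 RPKM in WT. Scd1 made up 21.9% ± 6.95 of that sum in the libraries labelled KO, 32.0% ± 6.89 in dHep and 66.6% ± 3.83 in WT (SD, n = 3 each). Elovl3 made up 25.5% ± 6.81 in the libraries labelled KO, 3.59% ± 2.74 in dHep and 0.592% ± 0.488 in WT. By mean RPKM the libraries labelled KO were led by Elovl3 (207), Scd1 (181), Fads2 (137) and Elovl2 (128), where each neighbour in that order differed by less than the spread between replicates. Scd1 (510.2), Fads2 (415), Fads1 (213) and Elovl2 (202) led in dHep, where Scd1 and Fads2, and Fads1 and Elovl2, differed by less than their spread. Scd1 (2967), Fads2 (475), Elovl5 (459) and Elovl2 (204) led in WT, where Fads2 and Elovl5 differed by less than their spread. Elovl2 and the next gene in WT, Fads1 (199), also differed by less than their spread.

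**Figure D3:**
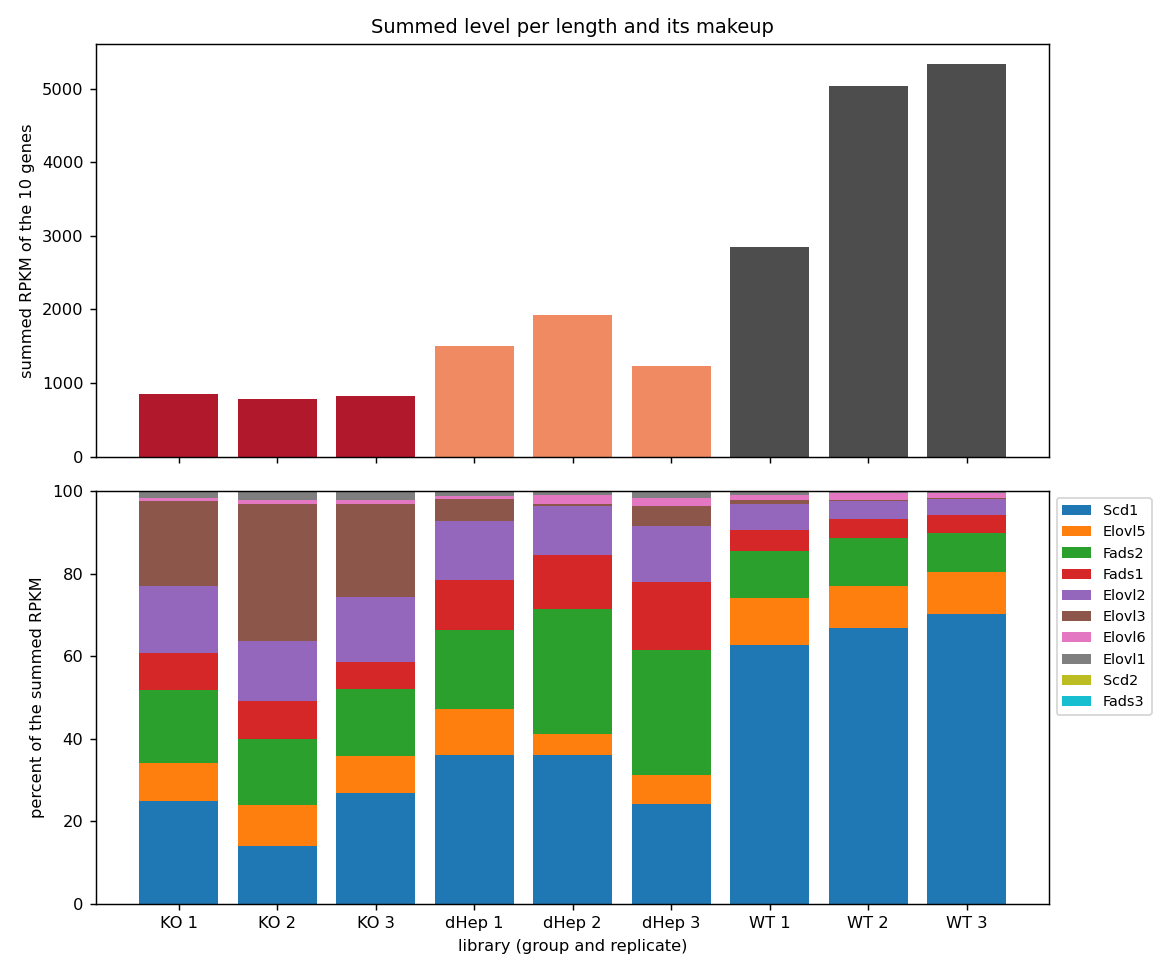
Summed RPKM of the 10 genes in each library (upper panel) and each gene's percentage of that sum (lower panel). Scd1 took a mean of 21.9% in the libraries labelled KO, 32.0% in dHep and 66.6% in WT, and Elovl3 a mean of 25.5% in the libraries labelled KO.

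Ratios between genes of the same library do not depend on its scaling. Of 6 ratios computed, Elovl5 to Elovl2 had a mean log2 value of -0.71 ± 0.14 in the libraries labelled KO, -0.83 ± 0.41 in dHep and 1.14 ± 0.24 in WT (SD, n = 3 each). Every library labelled KO and every dHep library lay below 0, and every WT library above it, while the libraries labelled KO and dHep overlapped (exact permutation p = 0.8). Scd1 to Fasn, the fatty acid synthase that makes palmitate, was 3.04 ± 0.82 in the libraries labelled KO, 3.89 ± 0.34 in dHep and 5.25 ± 0.44 in WT, with no overlap between any pair of groups. Fads1 to Fads2 was -1.05 ± 0.26 in the libraries labelled KO, -0.91 ± 0.26 in dHep and -1.25 ± 0.08 in WT, and the libraries labelled KO overlapped both others. Elovl3 to Elovl1 was 3.88 ± 0.29 in the libraries labelled KO, 1.11 ± 1.75 in dHep and -0.09 ± 0.64 in WT. Scd1 to Elovl6 was 4.53 ± 0.60 in the libraries labelled KO, 4.39 ± 1.00 in dHep and 5.69 ± 0.30 in WT. Where groups did not overlap the exact two-sided permutation p was 0.1, which cannot pass 0.05 with 3 against 3.

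**Figure D4:**
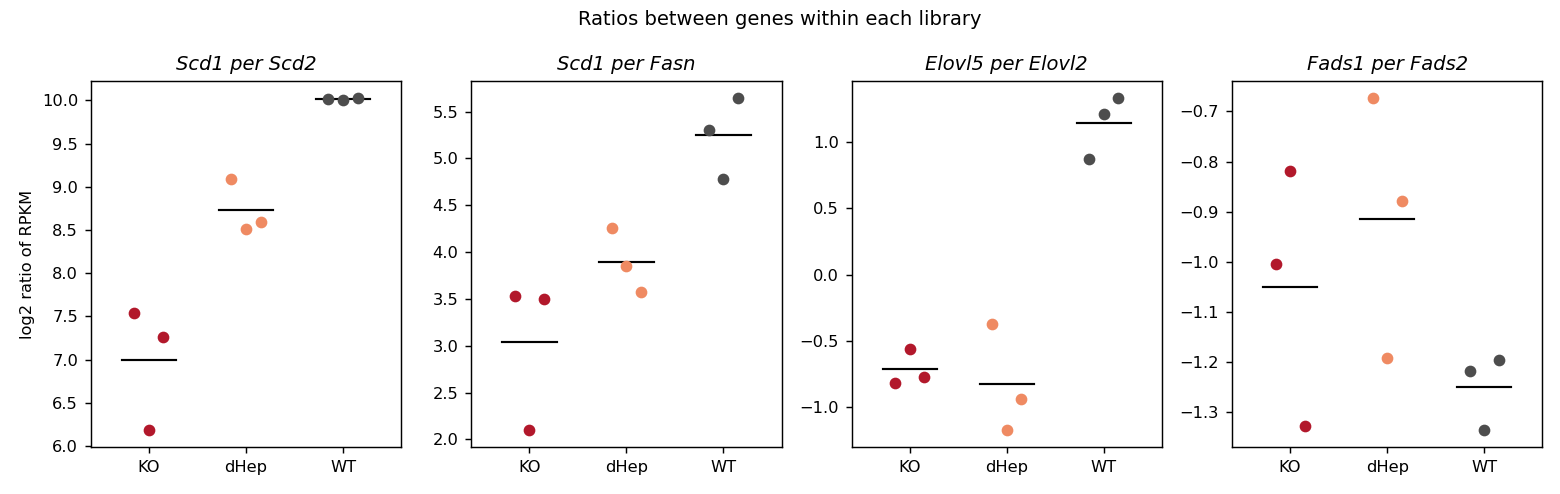
Log2 ratios of RPKM between 4 pairs of genes within each library, 1 point per mouse and a bar at the group mean. Scd1 to Scd2 lay at 10.01 to 10.03 in the 3 WT libraries and between 6.18 and 9.08 in the other 6, and Elovl5 to Elovl2 lay above 0 in WT alone among these groups.

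Of 6 enzymes tested that complete the elongation cycle, 1 rose and 2 fell in the libraries labelled KO against WT, and 1 fell in dHep. Over all genes tested, 43.0% changed in the libraries labelled KO and 24.3% in dHep against WT. Hsd17b12, the ketoacyl reductase of the cycle, fell in the libraries labelled KO (log2 fold change -0.72 ± 0.15, edgeR adjusted p = 0.00468) and in dHep (-0.84 ± 0.15, edgeR adjusted p = 0.00503). In the libraries labelled KO, Ptplad2, a dehydratase-family gene now named Hacd4, fell by 2.85 ± 0.52 and Tecr, the last reductase of the cycle, rose by 0.61 ± 0.19 on the log2 scale. Ptplad2 had few reads, 9, 7 and 4 in the libraries labelled KO and 75, 68 and 51 in WT. Of 5 genes for electron transfer, Cyb5, which encodes cytochrome b5, rose in the libraries labelled KO (0.61 ± 0.15) and in dHep (0.68 ± 0.15), and Cyb5b fell in the libraries labelled KO (-0.54 ± 0.14). In the wider family Elovl7 fell in the libraries labelled KO (-1.19 ± 0.38, edgeR adjusted p = 0.0304) and in dHep (-3.09 ± 0.42, edgeR adjusted p = 0.0017), and was higher in the libraries labelled KO than in dHep (1.90 ± 0.43, edgeR adjusted p = 0.0266). It had 2.20, 1.54 and 1.96 CPM in the libraries labelled KO, 0.210, 0.762 and 0.588 CPM in dHep, and 3.57, 3.59 and 5.88 CPM in WT. Elovl4 had at most 15 reads in a library and was not tested.

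Genes that supply palmitate fell with the family in the libraries labelled KO. Of 9 genes of de novo lipogenesis, 7 fell and 1 rose there against WT, 3 fell and 1 rose in dHep against WT, and 3 fell in the libraries labelled KO against dHep. Without WT replicate 1 and dHep replicate 2, 6 fell in the libraries labelled KO and 5 in dHep against WT, 1 fell in the libraries labelled KO against dHep, and the gene that rose was no longer called. With every library kept, 22.1% of all genes tested fell in the libraries labelled KO and 11.9% in dHep against WT. In the libraries labelled KO against dHep the share was 5.39%. The malic enzyme Me1, a source of NADPH, had log2 fold changes of -2.97 ± 0.34 in the libraries labelled KO and -2.34 ± 0.33 in dHep (edgeR adjusted p = 0.000379 and 0.00197). Acaca, the acetyl-CoA carboxylase that makes malonyl-CoA for synthesis and elongation, had -2.49 ± 0.26 in the libraries labelled KO and -1.67 ± 0.25 in dHep. Fasn had 183, 253 and 194 CPM in the libraries labelled KO, 283, 476 and 247 CPM in dHep, and 448, 1213 and 743 CPM in WT, and fell in the libraries labelled KO (-1.93 ± 0.36) and in dHep (-1.26 ± 0.36). Mid1ip1, an activator of acetyl-CoA carboxylase, rose in the libraries labelled KO (0.67 ± 0.21) and in dHep (0.98 ± 0.21). Acacb, the carboxylase of the mitochondrial surface, was lower in the libraries labelled KO than in WT (-3.71 ± 0.54, edgeR adjusted p = 0.000929) and than in dHep (-2.82 ± 0.52, edgeR adjusted p = 0.0129).

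Of 13 genes of transcriptional control, 5 rose and 3 fell in the libraries labelled KO against WT, and 4 rose and 1 fell in dHep. The shares of all genes tested that changed were 43.0% in the libraries labelled KO and 24.3% in dHep. Srebf1, whose products include SREBP-1c, had 404, 279 and 286 CPM in the libraries labelled KO, 339, 456 and 387 CPM in dHep, and 193, 258 and 184 CPM in WT. It rose in the libraries labelled KO (0.61 ± 0.19) and in dHep (0.90 ± 0.19), the opposite sign to Scd1, Elovl5 and Fasn. Scap, the escort protein of SREBP, rose in the libraries labelled KO (0.82 ± 0.08) and in dHep (0.57 ± 0.08), as did Mlxipl, which encodes ChREBP (0.84 ± 0.20 in the libraries labelled KO and 1.02 ± 0.20 in dHep). Nr1h2, which encodes LXRβ, rose in the libraries labelled KO (0.83 ± 0.14). Nr1h3, which encodes LXRα, rose in the libraries labelled KO (0.61 ± 0.12) and in dHep (0.47 ± 0.12). Pparg fell in the libraries labelled KO (-1.80 ± 0.13) and in dHep (-1.57 ± 0.13) and Ppara fell in the libraries labelled KO (-0.96 ± 0.20). Insig1, which retains the SREBP complex in the endoplasmic reticulum and is itself an SREBP target, was lower in the libraries labelled KO than in WT (-0.92 ± 0.19, edgeR adjusted p = 0.00502) and than in dHep (-0.94 ± 0.19, edgeR adjusted p = 0.0192). Protein levels and SREBP cleavage were not measured.

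**Figure D5:**
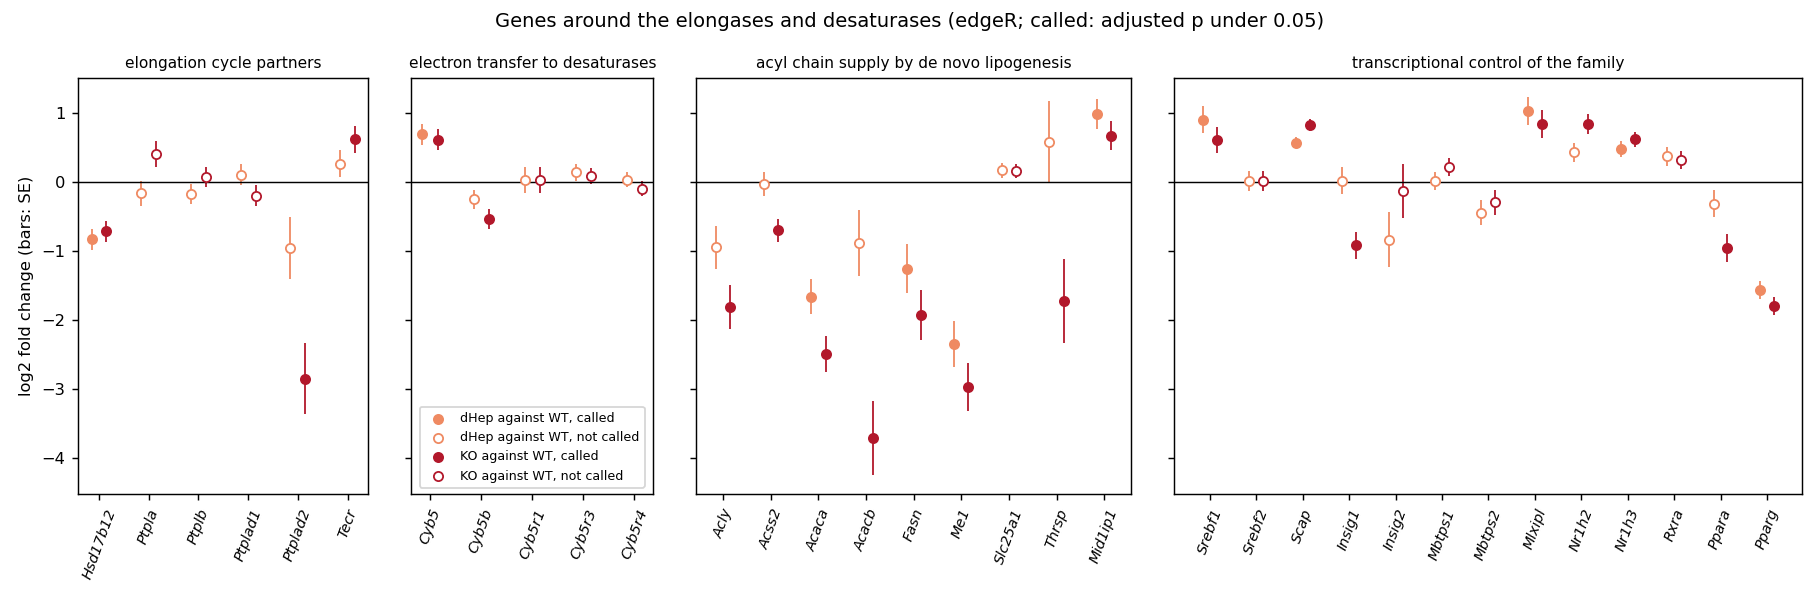
Log2 fold changes against WT of the genes of 4 lists around the family, with dHep left of the libraries labelled KO for each gene, bars for the standard error and filled points for genes past the threshold. Of 9 lipogenesis genes 7 fell in the libraries labelled KO and 3 in dHep.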

How the data were processed

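Libraries from 9 livers were made with a stranded kit, per the labels' protocols. HISAT2 2.1.0 placed the reads on mm10, per the submitters' processing notes, which also name DESeq2. The deposited table holds the authors' raw counts per gene from featureCounts 1.6.2 with strand setting 2, per the file headers, and each gene's length in bases, another unit of the deposited table; how reads with several matches were counted is not given in the sources used here. Of its value columns, 0 could not be matched to a sample.

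The counts entered 1 edgeR 4.0.16 quasi-likelihood fit (R 4.3.3) over 9 libraries, with TMM factors of 0.883 to 1.10, a mean per group and filterByExpr (minimum count 10, total 15), which left 13141 genes. P-values were adjusted by Benjamini-Hochberg over all of these. The labels do not say more of the replicates than that they are separate mice, so p-values measure the spread between these libraries. Replicates correlated at a Pearson r of 0.949 to 0.991 (log2 CPM, across genes, which are not independent). Ratios were tested by exact two-sided permutation. The 17 alternatives are DESeq2 1.42.0, limma 3.58.1 voom, other size factors and filters, 2 groups only, a replicate block, each library left out, and WT replicate 1 with dHep replicate 2 left out.

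Members and lists were chosen with earlier results of these data known. Named are the members, F2rl1, at most 2 called genes each way in a list, by smallest p, and the 3 non-member genes nearest to Scd1, Elovl5 and Elovl3. Fasn, Srebf1, Vil1, Spp1, Sox9, Krt19, Krt7, Epcam, Slco1a1, Cyp2d9, Cyp4a12b, Nr1h3 and the untested relatives were named after their values were seen. A gene that this rule selects is not reported here. Older symbols were matched through RefSeq synonyms.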

Additional observations from a re-analysis of the deposited data

How the results depend on the processing

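Of 510 values (10 genes, 3 comparisons, 17 alternatives), 441 kept their direction and their side of the threshold, 49 lost a call, 10 gained one and 10 turned sign, none of the last called. With 3 libraries a group, values near the threshold move with 1 library. In dHep against WT, log2 fold changes ranged from -0.1063 to 0.108 for Elovl2, from -0.0942 to 0.2196 for Fads1 and from -0.5136 to 0.0097 for Fads2 with 1 library left out, and were 0.0037 for Elovl2 with only these groups fitted and, without WT replicate 1 and dHep replicate 2, -0.2401 for Fads1 and -0.7241 for Fads2 (called, edgeR adjusted p = 0.0236). Fads3 ranged from -0.0604 to 0.2694 in the libraries labelled KO against WT, and Scd2 from -0.0832 to 0.6152 in those libraries against dHep. With 1 library left out, genes called ranged from 1359 to 4025 in dHep against WT, 3835 to 6547 in the libraries labelled KO against WT and 386 to 2809 in these against dHep. In the same order the members that fell ranged from 2 to 5, 7 to 8 and 1 to 5, and those that rose from 0 to 1, 1 to 1 and 0 to 1. In the libraries labelled KO against WT, the calls of 8 members held under all 17 settings and that of Scd2 did not. With only 2 groups fitted, 2 members fell in dHep against WT. In the libraries labelled KO against dHep, genes called numbered 2068 by DESeq2 (1 member rose, 5 fell), 802 by limma voom (3 members fell) and 342 with 2 groups fitted (2 fell). Without WT replicate 1 and dHep replicate 2 together, 495 were called there (1 member rose, 2 fell) and 1 member rose in dHep against WT. The cause of these shifts was not tested.

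Same-numbered libraries of different groups had correlations of their deviations between -0.27 and 0.03, 0 of 9 over 0.1, and 0 of 9 libraries matched their own number best. These values gave no sign of a pairing by number. With 3 libraries a group they cannot show whether mice shared a litter, cage or batch. With the replicate number as a block, genes called numbered 2781 in dHep against WT, 5292 in the libraries labelled KO against WT and 954 in these against dHep, where 3 members fell. Under the block Elovl6 passed in dHep against WT (edgeR adjusted p = 0.0201), and Elovl2 and Scd1 did not in the libraries labelled KO against dHep (0.0591 and 0.0938).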

Other observations

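Lists of genes that handle the products of the family are given beside the 43.0% of all genes tested that changed in the libraries labelled KO and the 24.3% in dHep against WT. Of 8 acyl-CoA synthetases, 1 rose and 3 fell in the libraries labelled KO against WT and 2 rose and 1 fell in dHep. The synthetase Acsl5 had log2 fold changes of -1.14 ± 0.16 in the libraries labelled KO and -0.84 ± 0.16 in dHep. Acsl6 had 3.46 ± 0.53 in the libraries labelled KO and 2.36 ± 0.57 in dHep, but on few reads. It had 15, 12 and 9 reads in the libraries labelled KO, 6, 10 and 5 reads in dHep, and 2, 1 and 1 reads in WT. The bile acid-CoA ligase Slc27a5 rose in dHep (0.85 ± 0.24) and Acsl3 fell in the libraries labelled KO (-0.92 ± 0.28). Among genes of the peroxisomal shortening that ends docosahexaenoate synthesis, the transporter Abcd2 had -4.23 ± 0.40 in the libraries labelled KO and -1.27 ± 0.35 in dHep, and was lower in the libraries labelled KO than in dHep (-2.96 ± 0.38, edgeR adjusted p = 0.00302). The thiolase Acaa1a had 0.55 ± 0.18 in the libraries labelled KO and 0.68 ± 0.18 in dHep. Of 8 phospholipid acyltransferases tested, 4 fell in the libraries labelled KO and 1 in dHep, with Lpcat2 at -2.51 ± 0.31 in the libraries labelled KO and -1.18 ± 0.28 in dHep, and Lclat1 at -0.46 ± 0.12 in the libraries labelled KO. Reads of Lpcat2 were also few, 11, 20 and 16 in the libraries labelled KO, 64, 64 and 28 in dHep, and 115, 112 and 137 in WT. Of 6 ceramide synthesis genes, 3 fell in the libraries labelled KO and 2 in dHep. Lass6, now named Cers6, the synthase of ceramides with palmitate, had -2.75 ± 0.31 in the libraries labelled KO against WT and -1.94 ± 0.30 against dHep, and Sptlc2, a subunit of the first enzyme of sphingolipid synthesis, had -0.75 ± 0.15 in the libraries labelled KO and -0.76 ± 0.15 in dHep against WT.

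Likeness of pattern was measured as the root mean square difference of log2 CPM, each gene centred on its mean over the 9 libraries, among 11822 genes averaging 1 CPM or more. Nearest to Scd1 were Raet1d (0.45), Hao2 (0.56) and Nt5e (0.57), against a median of 1.75 over the genes compared. Nearest to Elovl5 were Mmd2 (0.25), Tlr1 (0.26) and Slc22a29 (0.29), against 1.16. Nearest to Elovl3 were Rian (0.50), 1500015A07Rik (0.65) and Lrtm1 (0.69), against 1.69. These medians lay near the root mean square spread of each gene around its own mean, 1.74 for Scd1, 1.13 for Elovl5 and 1.67 for Elovl3.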
